A study of Mus musculus with 6 samples.

Results

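Mitochondrial DNA is a small circular genome that is transcribed and translated inside the organelle. Its mRNAs encode core subunits of respiratory complexes I, III and IV and of the ATP synthase, while the remaining subunits of the same complexes are encoded in the nucleus. Both DNA strands are transcribed as long precursors, from which the tRNAs that lie between the coding genes are cut out, so that the mRNAs and rRNAs are released. In white adipocytes this respiratory chain burns fatty acids and supplies ATP for lipid synthesis, and complexes I and III carry iron-sulfur clusters while complexes III and IV carry heme.

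The mitochondrial genome transcripts were taken as the rows of the deposited expression table whose gene name starts with mt-. This rule found 13 of 35275 rows, all on the mitochondrial chromosome and all mRNAs. They comprise 7 subunits of complex I, 1 of complex III, 3 of complex IV and 2 of the ATP synthase. Of the 13, 12 lie on the plus strand of the reference and mt-Nd6 alone lies on the minus strand. Mitochondrial rRNAs and tRNAs were not analysed here. Epididymal fat, a visceral white depot, was taken from male C57BL/6 mice. The 3 knockout samples (KO) were labelled TfrcAKO, known as a deletion of the transferrin receptor gene Tfrc in adipocytes; the labels neither spell out the abbreviation nor name the Cre driver. The 3 control samples (titled WT) were labelled Tfrcfl/fl, so both copies of Tfrc carry loxP sites. Both groups were 2 months old when a diet with 60% fat began, received it over 10 weeks, and were 4.5 months old at sampling. No label states whether the samples of a group came from different animals, and p-values then cover only the spread among these samples.

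Values are FPKM, fragments per kilobase of gene length and per 1000000 gene-assigned reads. Depth ranged from 25252839 to 30650624 gene-assigned reads, and within each group the counts of any pair of samples differed beyond sampling noise (chi-square over its degrees of freedom, 15.5 to 98.1). Tfrc itself was at 7.10, 8.27 and 9.50 FPKM in KO replicates 1, 2 and 3, against 11.1, 13.2 and 11.9 FPKM in WT replicates 1, 2 and 3. KO replicate 3 stood apart: over all genes its log2 values correlated with the other KO samples at 0.975 and 0.978, where those correlated with each other at 0.990. The log2 fold change of each mRNA is therefore given also without it. The depot is mixed tissue: the 15 mature adipocyte markers summed to between 25232 and 37332 FPKM in KO samples and between 9434 and 13399 FPKM in WT samples, and 14 of them rose. The 15 macrophage markers summed to between 1713 and 3913 FPKM in KO samples and between 7116 and 8359 FPKM in WT samples, and 14 of them fell, where 21.9% of all genes tested were called higher and 21.6% lower by the test given below. Without KO replicate 3 the numbers were 15 and 15. Without WT replicates 1, 2 and 3 the adipocyte markers that rose numbered 13, 12 and 12, and the macrophage markers that fell numbered 11, 6 and 8. The 5 endothelial markers summed to between 131 and 195 FPKM in KO samples and between 63.7 and 73.7 FPKM in WT samples, and all 5 rose. The 5 mesothelial markers, of the lining around the fat pad, summed to between 92.6 and 112.7 FPKM in KO samples and between 58.0 and 61.4 FPKM in WT samples, and 4 of them rose. KO replicate 3 had the highest adipocyte sum and the lowest macrophage sum. In such samples fewer cells of a type and less RNA per cell cannot be told apart, and the part of cell makeup in the mitochondrial values below was not tested. Ucp1, the defining gene of brown fat, stayed between 0.0723 and 0.0992 FPKM in KO samples and between 0.0467 and 0.167 FPKM in WT samples, so that it was too low to be tested. The 6 skeletal muscle markers summed to between 16.5 and 22.7 FPKM in KO samples and between 8.39 and 11.0 FPKM in WT samples. Of these, 3 passed the filter on low values and 1 rose: Acta1, skeletal actin, was at 18.1, 15.1 and 20.6 FPKM in KO samples, against 8.90, 7.21 and 6.37 FPKM in WT samples. Ckm, the creatine kinase of skeletal muscle, was listed at 0 in every sample except WT replicate 1, where it was at 0.0242 FPKM.

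Together the 13 mRNAs took a larger share of reads in every KO sample than in any WT sample. The share of gene-assigned reads was 2.44%, 2.61% and 4.09% in KO replicates 1, 2 and 3, against 1.88%, 1.76% and 1.73% in WT replicates 1, 2 and 3. The means were 3.05% ± 0.907 in KO tissue and 1.79% ± 0.0769 in WT tissue (SD, n = 3 each), and the KO mean was 2.53% without replicate 3. The WT samples lay close together, while the KO samples were spread by the high value of replicate 3. These shares rest on 689782 to 1033315 reads in KO samples and 457836 to 547165 reads in WT samples.

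**Figure D1:**
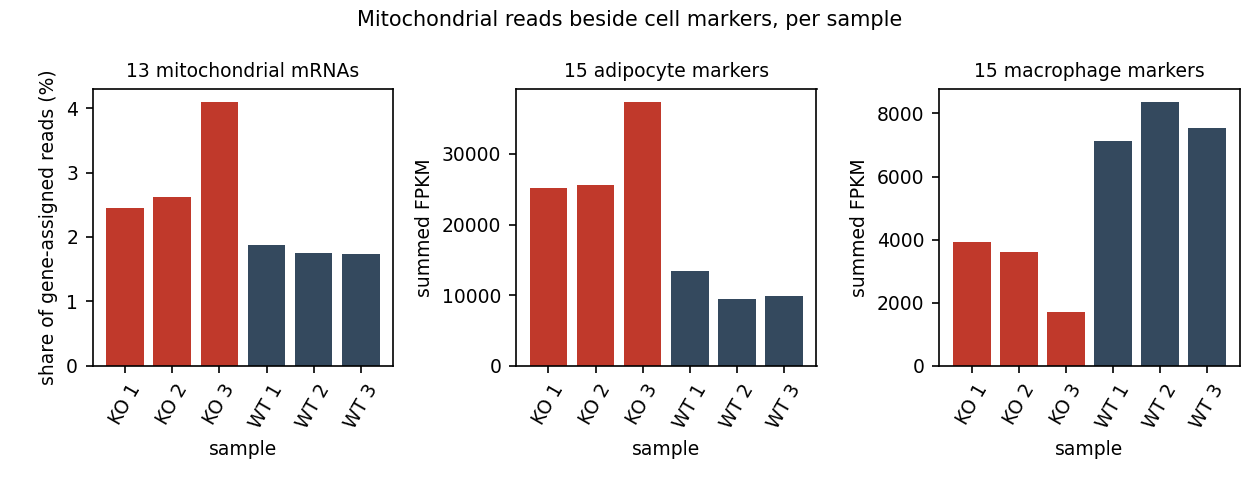
Left, share of gene-assigned reads in the 13 mitochondrial mRNAs (percent); middle and right, summed FPKM of 15 mature adipocyte and 15 macrophage markers; each bar is 1 sample. KO replicate 3 has the highest mitochondrial share, 4.09%, together with the highest adipocyte and the lowest macrophage sum.

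Several of the mRNAs have near-identical copies elsewhere, since pieces of mitochondrial DNA have been inserted in the nuclear genome. In the GENCODE M21 annotation of GRCm38 a run of 7 unprocessed pseudogenes on chromosome 1, between positions 24611535 and 24616197 on the minus strand, matches 7 of the mRNAs. Compared end to end without gaps, 5 of the 7 had no mismatch: Gm28439 over 876 bases of mt-Nd4, Gm10222 over 294 bases of mt-Nd4l, Gm28437 over 783 bases of mt-Co3, Gm10925 over 678 bases of mt-Atp6 and Gm28661 over 681 bases of mt-Co2. Gm28438 matched mt-Nd3 with 1 mismatch in 345 bases (T3C, counted from the first base of the mRNA). Gm29216 matched mt-Co1 from base 1054 to base 1545 with 6 mismatches, all of them in the first bases of the copy. Gm10222, with at most 80 reads in a sample, was named after its values were seen. The sequences below show 60 bases where mt-Co1 and this copy begin to run together, 5′ to 3′, with the differing bases in capitals, from chrMT:6381-6440 on the plus strand and chr1:24616138-24616197 on the minus strand.
mt-Co1: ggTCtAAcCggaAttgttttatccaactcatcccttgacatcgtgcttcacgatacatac
Gm29216: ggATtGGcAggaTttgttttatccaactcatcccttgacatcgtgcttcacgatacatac
A second, more diverged copy of mt-Co2, Gm13341, lies on chromosome 2 and was named after its values were seen. The first 60 bases of mt-Co2 (chrMT:7013-7072, plus strand) are shown with the same stretch of Gm28661 (chr1:24615506-24615565, minus strand) and of Gm13341 (chr2:22587903-22587962, minus strand), with the bases that differ between mt-Co2 and Gm13341 in capitals in all 3.
mt-Co2: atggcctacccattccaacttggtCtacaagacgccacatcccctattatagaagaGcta
Gm28661: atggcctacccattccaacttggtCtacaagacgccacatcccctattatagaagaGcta
Gm13341: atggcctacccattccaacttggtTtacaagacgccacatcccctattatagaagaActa
The chromosome 1 copy is letter for letter the same as mt-Co2, so a read from this stretch fits both places, whereas Gm13341 differs at 2 of the 60 bases. The stretch was chosen for having the most differences from Gm13341 within their longest block aligned without gaps. Of the 635 windows of 50 bases in mt-Co2, 224 occur unchanged in Gm13341.

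The levels of the 13 mRNAs fell into separate ranges along this line. For each mRNA the share of all 100-base windows that occur, on either strand, in an annotated nuclear transcript was counted. It was 99.5% for mt-Co2 and for mt-Atp6, 99.9% for mt-Co3, 97.6% for mt-Nd3 and 98.5% for mt-Nd4l. These 5 mRNAs lay between 5.38 and 65.0 FPKM in KO samples and between 3.92 and 30.6 FPKM in WT samples. The share was 60.7% for mt-Nd4, 30.8% for mt-Co1, 3.19% for mt-Nd2 and 0 for mt-Nd1, mt-Nd5, mt-Nd6 and mt-Cytb, and these 7 mRNAs lay between 1228 and 11744 FPKM in KO samples and between 840 and 4989 FPKM in WT samples. The 7 held 99.7% of the mitochondrial reads in each of the 3 KO samples and between 99.6% and 99.7% in WT samples. The exception by this count is mt-Atp8, the short ATP synthase subunit, with no shared window and the lowest level of all. Its last 43 bases overlap mt-Atp6 and match Gm10925 with no mismatch, but they are shorter than any window used. The neighbours of mt-Atp8 match Gm10925 and Gm28661, which leave 233 bases between them on chromosome 1. The nuclear sequence in that gap was not compared here, so sharing of the rest of mt-Atp8 is not known. With windows of 50 bases the shares were 8.19% for mt-Nd2, 51.1% for mt-Co1, 62.2% for mt-Nd4 and 7.61% for mt-Nd5. The treatment of reads that fit several places is not given in the sources used here. The part of shared sequence in these levels was not tested. Levels of the 5 highly shared mRNAs and of mt-Atp8 are therefore given below as deposited values and not set against those of the other 7.

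**Figure D2:**
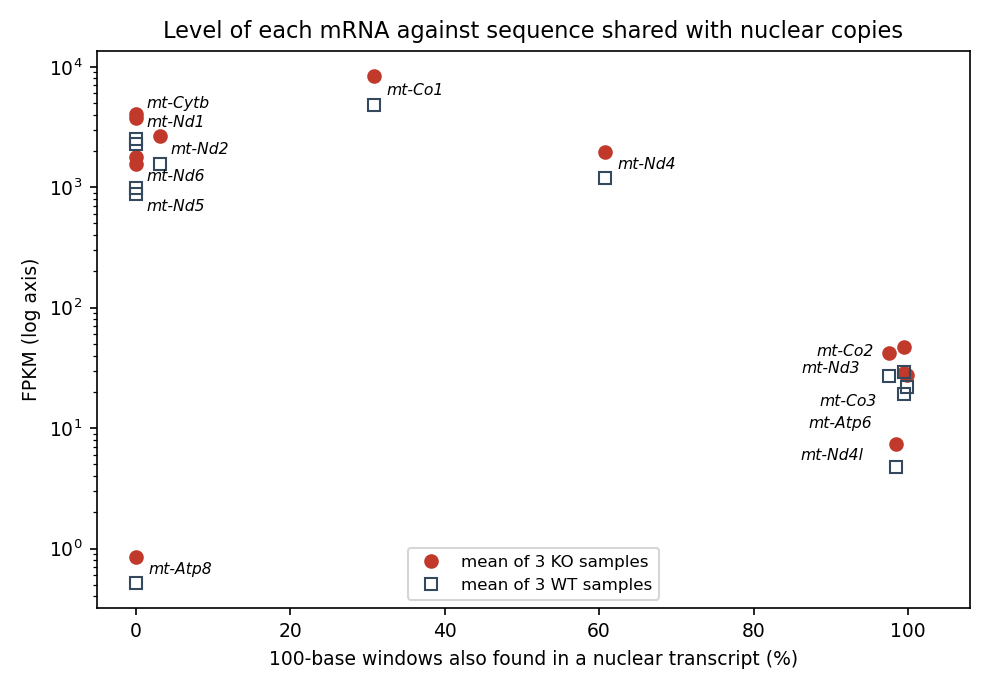
Mean FPKM of each mRNA (log axis) in the 3 KO samples (filled) and the 3 WT samples (open) against the percentage of its 100-base windows found in a nuclear transcript. The 5 mRNAs above 97% have means of at most 46.9 FPKM, 7 have means of at least 874 FPKM, and mt-Atp8 is low without a shared window. For mt-Atp8 the nuclear sequence between the neighbouring copies was not compared.

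Reads were also listed under the names of the copies. Where copy and mRNA are identical, the origin of such a read cannot be told. Across the 6 samples the values of the 7 copies ran up to 76.0 FPKM, for Gm29216 in KO replicate 3, and the lowest rested on 26 reads, for Gm10222 in WT replicate 3. Gm28661 was at 38.7, 42.0 and 71.5 FPKM in KO replicates 1, 2 and 3, against 33.4, 30.6 and 31.8 FPKM in WT replicates 1, 2 and 3, and mt-Co2 itself was at 34.0, 41.8 and 65.0 FPKM in KO samples and 29.7, 30.6 and 27.5 FPKM in WT samples. The copy and the mRNA were thus at nearly the same level in each sample, with a ratio of copy to mRNA of 1.14, 1.01 and 1.10 in KO samples and 1.12, 0.999 and 1.15 in WT samples. For Gm28437 and mt-Co3 the ratio was 1.05, 0.944 and 1.02 in KO samples and 0.961, 0.997 and 0.896 in WT samples. For Gm10925 and mt-Atp6 it was 1.89, 1.77 and 1.59 in KO samples and 1.71, 1.70 and 1.75 in WT samples, so that the copy was above the mRNA in every sample. For Gm28438 and mt-Nd3, which differ at 1 base, it was 0.208, 0.308 and 0.209 in KO samples and 0.284, 0.268 and 0.297 in WT samples. For the mRNAs with much unshared sequence it was far smaller, between 0.00634 and 0.00794 in KO samples and between 0.00635 and 0.00731 in WT samples for Gm28439 and mt-Nd4, and between 0.00621 and 0.00654 in KO samples and between 0.00569 and 0.00664 in WT samples for Gm29216 and mt-Co1.

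In the genotype comparison, limma on log2(FPKM + 0.5) was fitted across 14383 genes, with Benjamini-Hochberg adjustment over all of them. At an adjusted p under 0.05, 6 of the 13 mRNAs rose in KO tissue and none fell. Across all genes tested 21.9% were called higher in KO tissue, and the fit called 43.5% in either direction. The 13 log2 fold changes were all above 0, from 0.29 to 0.79, with a median of 0.62, where the median over all genes tested was −0.03. In 9 of the 13 every KO sample was above every WT sample, an order found in 29.1% of all genes tested. The 13 mRNAs are cut from long shared precursors, so these are not counts of separate observations. Without KO replicate 3 the median was 0.39 and 9 mRNAs were called, so the fold changes were smaller and the calls more numerous. The number called was 12 without KO replicate 1, 4 without KO replicate 2, 2 without WT replicate 1 and 0 without WT replicate 2 or WT replicate 3, with medians of 0.79, 0.74, 0.63, 0.70 and 0.66. The pair called without WT replicate 1 was mt-Nd2 and mt-Nd4. In the fits without WT replicate 2 or 3 the counts over all genes were lower as well, 3336 and 3421 against 6253 with all samples. The smallest adjusted p of a mitochondrial mRNA was then 0.0602 and 0.0623 by limma, and 6 and 5 of the 13 had an unadjusted p under 0.05.

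**Figure D3:**
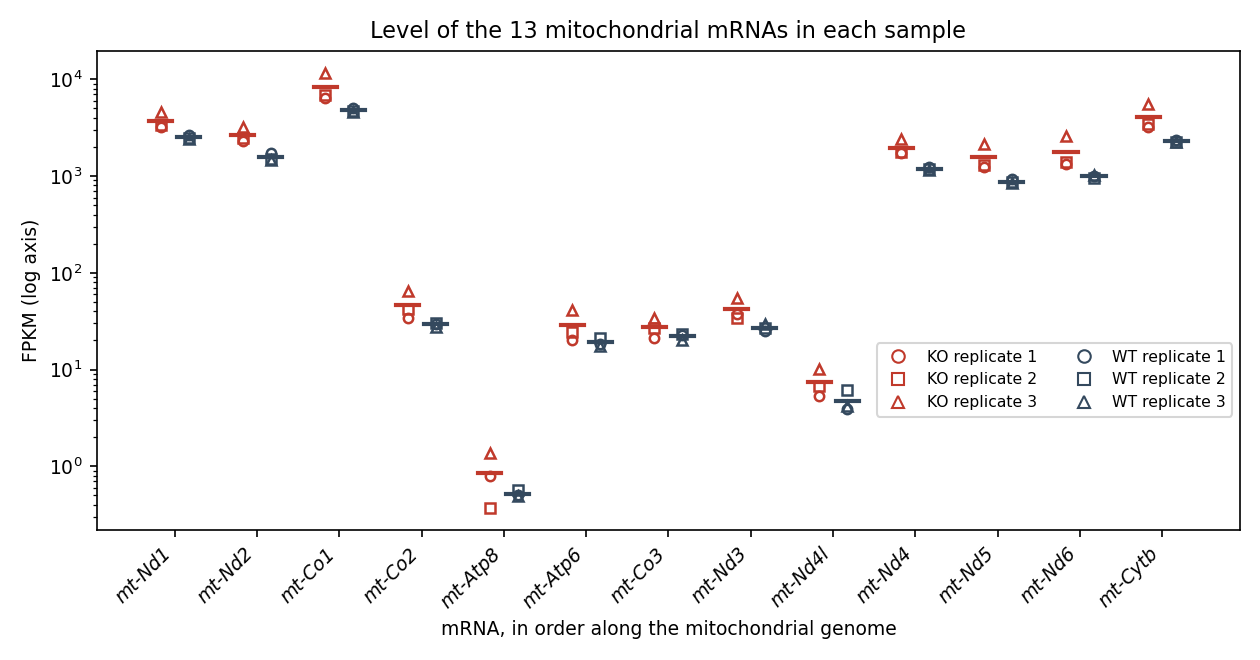
FPKM (log axis) of each mRNA in order along the mitochondrial genome; symbols are single samples (KO left, WT right) and bars are group means. The highest symbol of every mRNA is KO replicate 3.

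Complex I, the NADH dehydrogenase that passes electrons to ubiquinone, receives 7 subunits from mitochondrial DNA, and 5 of their mRNAs rose. mt-Nd2 (ENSMUSG00000064345, mm10 chrMT:3914-4951, plus strand), a membrane subunit of the proton-pumping arm, was at 2316, 2480 and 3207 FPKM in KO replicates 1, 2 and 3, against 1722, 1489 and 1480 FPKM in WT replicates 1, 2 and 3. The groups did not overlap, and its log2 fold change of 0.76 ± 0.17 (SE) had the smallest adjusted p of the 13, 0.0135 by limma, and was 0.62 without KO replicate 3. mt-Nd4 (ENSMUSG00000064363, chrMT:10167-11544, plus strand), another subunit of that arm, was at 1720, 1762 and 2426 FPKM in KO samples, against 1242, 1186 and 1158 FPKM in WT samples. Every KO sample was above every WT sample, with a fold change of 0.70 ± 0.17 on the log2 scale (SE, limma adjusted p = 0.0165) and 0.54 without KO replicate 3. mt-Nd5 (ENSMUSG00000064367, chrMT:11742-13565, plus strand), the largest of the subunits here by gene length at 1824 bases, was at 1228, 1312 and 2138 FPKM in KO samples, against 922, 860 and 840 FPKM in WT samples. KO replicate 3 stood well above the other KO samples, and the log2 fold change was 0.79 ± 0.22 (SE, limma adjusted p = 0.0284), or 0.54 without that sample.

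mt-Nd6 (ENSMUSG00000064368, chrMT:13552-14070, minus strand) is the complex I subunit transcribed from the opposite strand, and it ends tail to tail with mt-Nd5. Their 14 shared bases are shown 5′ to 3′ on the plus strand (chrMT:13552-13565), with the stop codon of mt-Nd5 in capitals; the stop codon of mt-Nd6 is read from the other strand.
mt-Nd5 and mt-Nd6 overlap: ttaatctcgagTAA
mt-Nd6 was at 1343, 1411 and 2593 FPKM in KO replicates 1, 2 and 3, against 1002, 949 and 1018 FPKM in WT replicates 1, 2 and 3. The groups did not overlap, and it rose by 0.78 on the log2 scale with an SE of 0.26 (limma adjusted p = 0.0487), beside 0.79 for mt-Nd5 on the other strand. Without KO replicate 3 it was 0.48 with an adjusted p of 0.00206 by limma. Its call was lost without KO replicate 2 (limma adjusted p = 0.0584), without any 1 of the WT samples (0.110, 0.136 and 0.116), without a filter (0.0787) and with median-of-ratios scaling (0.0578). The call was also lost with the replicate number as a block (limma adjusted p = 0.0559). Within a sample the ratio of mt-Nd6 to mt-Nd5 FPKM was 1.09, 1.08 and 1.21 in KO samples, against 1.09, 1.10 and 1.21 in WT samples, and the groups overlapped (difference of the mean log2 ratio −0.01, two-sided exact permutation p = 0.80, where 3 samples against 3 can give no less than 0.10). No source used here states the strand setting of the counting, and reads of mt-Nd6 cannot be told apart from reads of antisense precursor over the same bases.

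mt-Nd3 (ENSMUSG00000064360, chrMT:9459-9806, plus strand), a small complex I subunit and one of the 5 highly shared mRNAs, was at 37.2, 33.9 and 55.4 FPKM in KO samples, against 24.8, 27.0 and 29.4 FPKM in WT samples. It rose by 0.60 ± 0.18 on the log2 scale (SE, limma adjusted p = 0.0377), or by 0.39 without KO replicate 3 (adjusted p = 0.0128). The mt-Nd3 call was lost without a filter (limma adjusted p = 0.0681) and with median-of-ratios scaling (0.0501). It was also lost without WT replicates 1, 2 and 3 in turn (limma adjusted p = 0.109, 0.103 and 0.0751). mt-Nd1 (ENSMUSG00000064341, chrMT:2751-3707, plus strand), which helps to form the ubiquinone site, was at 3203, 3371 and 4599 FPKM in KO samples, against 2686, 2494 and 2418 FPKM in WT samples. Its groups did not overlap, yet its adjusted p was 0.0507 by limma, with a log2 fold change of 0.54 ± 0.18 (SE); without KO replicate 3 it was 0.38 with an adjusted p of 0.00750. mt-Nd4l, whose frame overlaps that of mt-Nd4 by 7 bases, was at 5.38, 6.76 and 10.1 FPKM in KO samples, against 3.92, 6.20 and 4.23 FPKM in WT samples. These values rest on 49 to 76 reads in KO samples and 34 to 48 in WT samples, the groups overlapped, and the log2 fold change of 0.57 ± 0.25 (SE) had an adjusted p of 0.108 by limma; it was 0.33 without KO replicate 3.

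In complex III, which passes electrons from ubiquinol to cytochrome c, the single mitochondrial subunit is cytochrome b, the protein that binds the b hemes. mt-Cytb (ENSMUSG00000064370, chrMT:14145-15288, plus strand) was at 3214, 3465 and 5537 FPKM in KO replicates 1, 2 and 3, against 2373, 2258 and 2247 FPKM in WT replicates 1, 2 and 3. The groups did not overlap, and it rose by 0.79 ± 0.23 on the log2 scale (SE, limma adjusted p = 0.0310), or by 0.54 without KO replicate 3 (adjusted p = 0.00143). The mt-Cytb call was lost without KO replicate 2 (limma adjusted p = 0.0533) and with the replicate number as a block (0.0564). It was also lost without WT replicates 1, 2 and 3 in turn (limma adjusted p = 0.0754, 0.0988 and 0.0994). The means were 4072 ± 1275 FPKM in KO tissue and 2293 ± 70.0 FPKM in WT tissue (SD, n = 3 each).

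None of the 3 mRNAs of complex IV, cytochrome c oxidase, passed the threshold with all samples. mt-Co1 (ENSMUSG00000064351, chrMT:5328-6872, plus strand) is the catalytic subunit with heme a and copper. Leaving aside the highly shared mRNAs and mt-Atp8, it had the highest FPKM of the other 7 in every sample. It was at 6418, 6945 and 11744 FPKM in KO replicates 1, 2 and 3, against 4989, 4725 and 4644 FPKM in WT replicates 1, 2 and 3, without overlap of the groups. Its log2 fold change was 0.75 ± 0.26 (SE) with an adjusted p of 0.0517 by limma; without KO replicate 3 the fold change was 0.48 and the adjusted p 0.00269. mt-Co2 (chrMT:7013-7696), which carries the copper centre that accepts electrons from cytochrome c, had a fold change of 0.62 ± 0.22 on the log2 scale (SE, limma adjusted p = 0.0596), and its groups did not overlap. Without KO replicate 3 it was 0.36 and passed the threshold (limma adjusted p = 0.0254). mt-Co3 (chrMT:8607-9390) was at 21.2, 27.1 and 34.2 FPKM in KO samples, against 22.9, 23.2 and 20.1 FPKM in WT samples. KO replicate 1 lay within the range of the WT samples, and the log2 fold change of 0.29 ± 0.17 (SE) had an adjusted p of 0.208 by limma and was 0.12 without KO replicate 3.

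The ATP synthase receives 2 subunits from mitochondrial DNA, whose frames overlap on the same strand. The 43 bases that belong to both genes (chrMT:7927-7969, plus strand, 5′ to 3′) show how closely the frames are packed; capitals mark the start codon of mt-Atp6 and the stop codon of mt-Atp8.
mt-Atp8 and mt-Atp6 overlap: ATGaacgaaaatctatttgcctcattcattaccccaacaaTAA
mt-Atp6, the subunit that forms the proton channel with the c ring, was at 20.2, 24.7 and 40.9 FPKM in KO samples, against 18.5, 21.2 and 17.7 FPKM in WT samples. KO replicate 1 lay below WT replicate 2, and the log2 fold change was 0.51 ± 0.24 (SE, limma adjusted p = 0.131), or 0.22 without KO replicate 3. mt-Atp8, a small membrane subunit of the stator, had 5, 2 and 7 reads in KO samples and 3 reads in each WT sample. The ratio of its reads per gene-assigned read was 1.60 in KO over WT tissue. The 95% exact interval, from 0.645 to 4.19, covers counting error only, so no difference was detectable with so few reads. Its fitted log2 fold change was 0.33 ± 0.27 (SE, limma adjusted p = 0.357), or 0.06 without KO replicate 3.

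**Figure D4:**
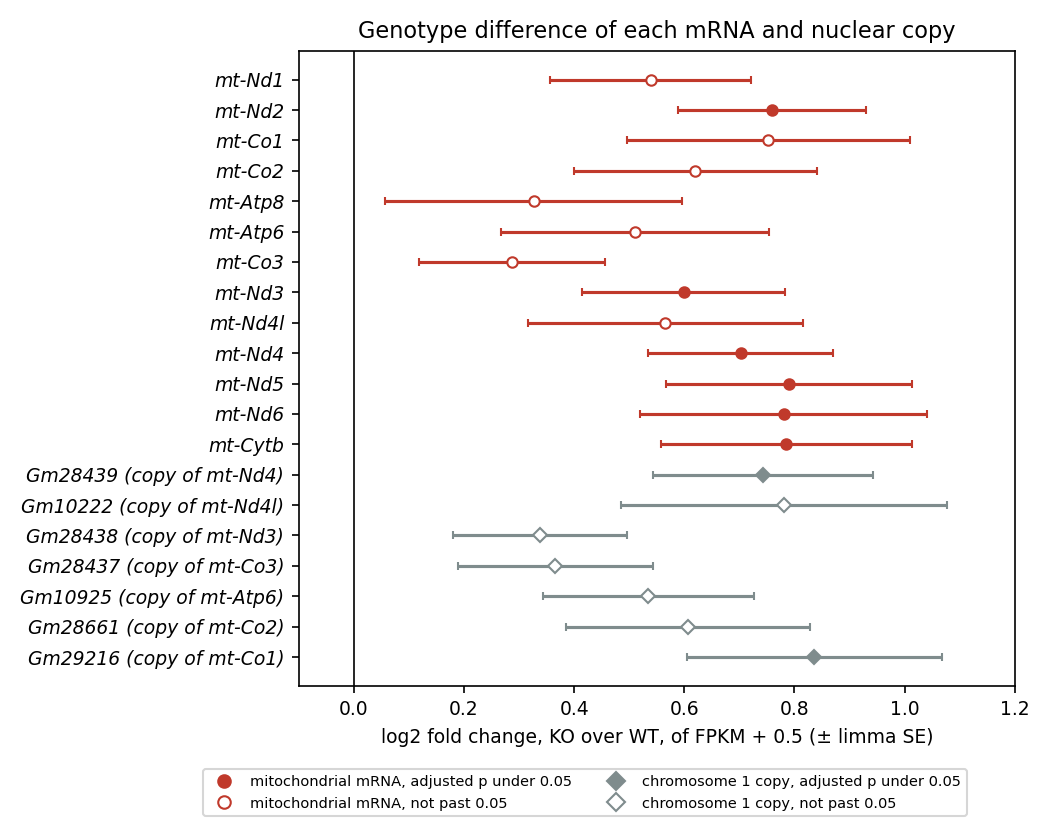
Log2 fold change in KO over WT tissue of FPKM + 0.5 for the 13 mRNAs (circles, top) and their 7 copies on chromosome 1 (diamonds), with limma standard errors; filled symbols have an adjusted p under 0.05. All 20 lie above 0, with 6 mRNAs and 2 copies filled.

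The 7 mRNAs other than the highly shared ones and mt-Atp8 differed in how they sat relative to each other in the 2 groups. In order of FPKM the WT samples had mt-Co1, mt-Nd1, mt-Cytb, mt-Nd2, mt-Nd4, mt-Nd6 and mt-Nd5, and no range of WT values overlapped that of its neighbour in this order. In all 3 KO samples mt-Cytb was above mt-Nd1, and in KO replicate 3 mt-Nd6 was also above mt-Nd4. mt-Nd1 made up 16.48%, 16.25% and 14.26% of the summed FPKM of these 7 in KO replicates 1, 2 and 3, against 17.98%, 17.86% and 17.51% in WT replicates 1, 2 and 3. mt-Cytb made up 16.5%, 16.7% and 17.2% in KO samples, against 15.9%, 16.2% and 16.3% in WT samples. mt-Nd5 likewise had a higher part in each KO sample, 6.32%, 6.32% and 6.63%, against 6.17%, 6.16% and 6.08% in WT samples. These parts sum to a whole, so a lower part of mt-Nd1 and a higher part of the others are not separate results.

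Ratios of single mRNAs within a sample do not depend on the scaling to library size. The ratio of mt-Nd1 to mt-Cytb was 0.997, 0.973 and 0.831 in KO samples, against 1.13, 1.10 and 1.08 in WT samples, with a difference of the mean log2 ratio of −0.25. The ratio of mt-Nd1 to mt-Nd2 was 1.38, 1.36 and 1.43 in KO samples, against 1.56, 1.67 and 1.63 in WT samples, with a difference of −0.22. Both ratios were lower in every KO sample than in any WT sample, and the two-sided exact permutation p was 0.10 for each, the smallest these groups can give (0.20 adjusted over the 4 ratios examined). The ratio of mt-Co1 to mt-Nd2 was 2.77, 2.80 and 3.66 in KO samples, against 2.90, 3.17 and 3.14 in WT samples, and the groups overlapped (exact permutation p = 1.0). Apart from that of mt-Nd6 to mt-Nd5, the ratios were chosen after the values were seen. Neither their p-values nor the adjustment over the 4 ratios covers that choice.

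The 7 mRNAs did not differ from WT tissue by the same factor in the 3 KO samples. In KO replicate 1 these 7, again without the highly shared mRNAs and mt-Atp8, were at 1.26 (mt-Nd1) to 1.48 (mt-Nd2) times their WT mean. In KO replicate 2 they were at 1.33 (mt-Nd1) to 1.59 (mt-Nd2) times. In KO replicate 3 they were at 1.82 (mt-Nd1) to 2.62 (mt-Nd6) times. Set against the mean of the other KO samples, KO replicate 3 was 1.34 times as high for mt-Nd2, 1.39 for mt-Nd4 and 1.40 for mt-Nd1, but 1.66 for mt-Cytb, 1.68 for mt-Nd5, 1.76 for mt-Co1 and 1.88 for mt-Nd6. mt-Nd1 was the lowest of the 7 relative to WT tissue in each of the 3 KO samples.

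Of the 7 nuclear copies on chromosome 1, 2 rose and none fell, a share of 28.6% that is near the 21.9% over all genes tested. They were Gm29216, the copy of mt-Co1, which rose by 0.84 ± 0.23 on the log2 scale (SE, limma adjusted p = 0.0269), and Gm28439, the copy of mt-Nd4, with 0.74 ± 0.20 (SE, limma adjusted p = 0.0244). The 7 fold changes ran from 0.34 to 0.84 with a median of 0.61. The numbers called were 5, 2 and 4 without KO replicates 1, 2 and 3, 1 without WT replicate 1 and 0 without WT replicate 2 or 3. The copies are no independent measure of the genotype difference, since their bases are those of the mRNAs.

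The nuclear subunits of the same complexes were set beside the mitochondrial mRNAs, from lists of subunits by complex; over all genes tested 21.9% rose, 21.6% fell and the median was −0.03. Of 36 nuclear complex I subunits 29 (80.6%) rose and none fell, with a median log2 fold change of 0.36, while the 7 mitochondrial ones had a median of 0.70. Among them were Ndufab1, the acyl carrier protein of the complex, at 0.78 ± 0.11 (SE) and Ndufs3, a subunit of its peripheral arm, at 0.66 ± 0.10 (SE), with limma adjusted p of 0.00459 and 0.00491. All 9 nuclear complex III subunits rose, with a median of 0.53 and with Cyc1, cytochrome c1, at 0.68 ± 0.16 (SE, limma adjusted p = 0.0172), beside 0.79 for mt-Cytb. Of 15 nuclear complex IV subunits 11 (73.3%) rose and none fell, with a median of 0.37 beside 0.62 for the 3 mitochondrial ones; Cox8b and Cox7a1, isoforms found mainly in muscle and brown fat, had the largest fold changes, 1.74 ± 0.19 and 1.44 ± 0.14 (SE, limma adjusted p = 0.00366 and 0.00363). Both also stand in the list of 6 brown fat markers, of which 3 rose and 2 fell (1 fell without KO replicate 1 or KO replicate 3, and none without any 1 of the WT samples). Of 17 nuclear ATP synthase subunits 7 (41.2%) rose and 1 fell, with a median of 0.30 beside 0.42 for the 2 mitochondrial ones. Atp5b, the catalytic beta subunit, was at 0.72 ± 0.17 (SE, limma adjusted p = 0.0156), and Atp5g1, a c ring subunit named after its values were seen, fell by 0.41 on the log2 scale with an SE of 0.11 (limma adjusted p = 0.0220). Without WT replicate 2 the numbers that rose were 10, 3, 3 and 2 for complexes I, III, IV and the ATP synthase, and without WT replicate 3 they were 9, 3, 3 and 2. Without WT replicate 1 complexes III and IV had 5 and 5, and without KO replicate 2 complexes I and IV had 19 and 6. Without KO replicate 3 the numbers were 31, 9, 11 and 8 for complexes I, III, IV and the ATP synthase. The nuclear medians were then 0.33, 0.45, 0.36 and 0.20. In the same fit the mitochondrial median was 0.48 in complex I (mt-Nd6), 0.54 in complex III (mt-Cytb) and 0.36 in complex IV (mt-Co2). The 2 mitochondrial values of the ATP synthase were then 0.22 (mt-Atp6) and 0.06 (mt-Atp8). The mitochondrial median of complex IV is the value of mt-Co2, a highly shared mRNA. That of the ATP synthase rests on mt-Atp6, also highly shared, and on mt-Atp8, with 2 to 7 reads. The complex I median includes the highly shared mt-Nd3 and mt-Nd4l. Whether mitochondrial and nuclear mRNAs of a complex differ in their change was not tested.

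**Figure D5:**
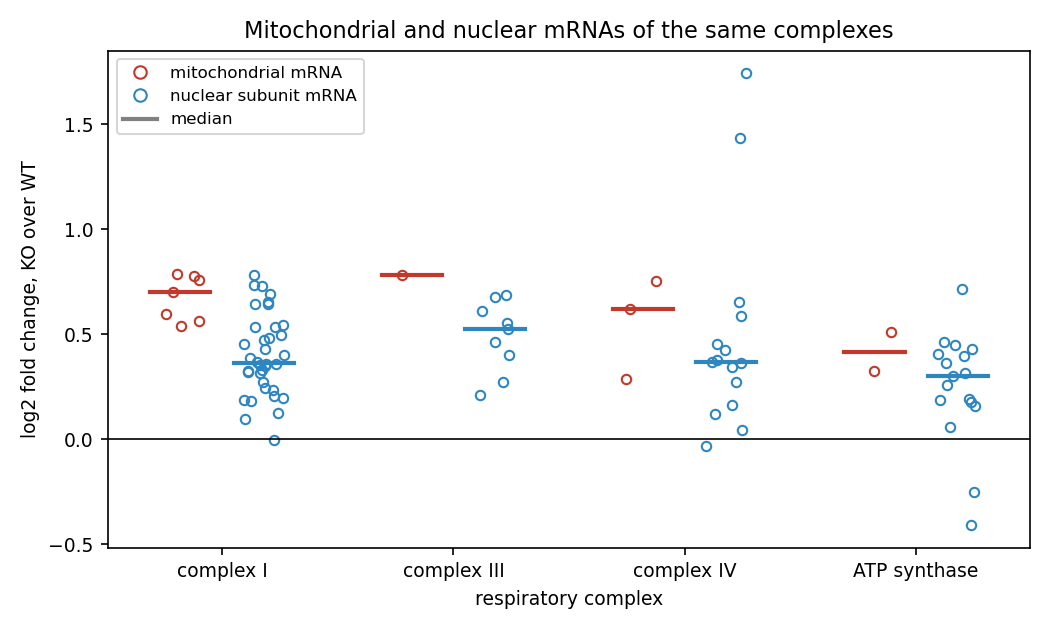
Log2 fold change in KO over WT tissue of mitochondrial (red) and nuclear (blue) mRNAs of each respiratory complex; points are genes and bars are medians. With all samples the medians are 0.70 and 0.36 in complex I, 0.79 and 0.53 in complex III, 0.62 and 0.37 in complex IV, and 0.42 and 0.30 in the ATP synthase.

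Of 22 genes that transcribe and copy mitochondrial DNA 6 rose and 1 fell, with a median log2 fold change of 0.15. The share that rose, 27.3%, was near the 21.9% over all genes tested. Tfam, which packages mitochondrial DNA and starts its transcription, averaged 5.42 FPKM in KO tissue and 5.46 FPKM in WT tissue (log2 fold change −0.01 ± 0.07, SE, limma adjusted p = 0.911). Polrmt, the mitochondrial RNA polymerase, averaged 6.18 FPKM in KO tissue and 5.86 FPKM in WT tissue (0.07 ± 0.08, SE, limma adjusted p = 0.520). Both were named here after their values were seen. Tfb2m, the partner of that polymerase at promoters, was at 9.42, 9.39 and 10.6 FPKM in KO samples, against 7.29, 8.07 and 7.41 FPKM in WT samples, and rose by 0.35 ± 0.08 (SE, limma adjusted p = 0.0156). Tefm, its elongation factor, rose by 0.34 ± 0.09 (SE), Top1mt, the mitochondrial topoisomerase, by 0.52 ± 0.15 (SE) and Mterf2, a relative of the transcription termination factor, by 0.84 ± 0.14 (SE), with limma adjusted p of 0.0267, 0.0296 and 0.00624. The gene that fell, named after its values were seen, was Rnaseh1, which removes RNA from RNA-DNA hybrids, at −0.23 ± 0.08 (SE, limma adjusted p = 0.0468). Its call was lost in every fit that left out 1 sample, without a filter, by limma-voom on the recovered reads and with the replicate number as a block.

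Of 29 genes that cut, tail, modify or degrade mitochondrial RNA 7 rose and none fell, with a median log2 fold change of 0.13. The share that rose, 24.1%, was near the 21.9% over all genes tested. Elac2, which cuts tRNAs out of the precursors at their 3′ ends, rose by 0.29 ± 0.07 (SE, limma adjusted p = 0.0199), and Hsd17b10, a subunit of the enzyme that cuts at their 5′ ends, by 0.63 ± 0.12 (SE, limma adjusted p = 0.00791). Rexo2, which degrades short RNAs, rose by 0.32 ± 0.08 (SE) and Ptcd3, a protein of the mitochondrial ribosome, by 0.47 ± 0.12 (SE), with limma adjusted p of 0.0184 and 0.0195. Lrpprc and Slirp, which together stabilise mitochondrial mRNAs, had log2 fold changes of 0.18 ± 0.10 and −0.18 ± 0.14 (SE, limma adjusted p = 0.192 and 0.314) and were named after their values were seen. The numbers that rose in these 2 lists were 1 and 4 without WT replicate 1, 4 and 1 without WT replicate 2 and 1 and 1 without WT replicate 3. Without KO replicate 3 they were 5 and 6, and no gene of either list fell.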

How the data were processed

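Per the labels' protocols, RNA was isolated with Trizol and libraries came from an NEBNext Ultra RNA kit. CASAVA, FastQC, STAR 2.5, HTSeq 0.6.1 and the build mm10 are named in the submitters' processing notes; no source used here names the annotation release, the strand setting or any filter. The deposited values are FPKM, per the file headers, with 1 column per sample. Times gene length in kilobases they sum to 1000000 per sample, and 100% of values above 0 were whole multiples of 1 read within 0.01, which gave back reads and depth.

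Genes with at least 0.5 FPKM in 3 samples were kept, and limma 3.58.1 in R 4.3.3 was run two-sided on log2(FPKM + 0.5), with trend and robust moderation. The procedure was tested on simulated data. Sequences came from GENCODE M21 transcripts (GRCm38), whose positions for the 13 mRNAs equal those of the table. Of 192 list entries 191 were found. Named were all 13 mRNAs, the chromosome 1 copies with 100 reads in any sample and, per list, at most 4 called genes of lowest p. The members and lists were chosen with earlier results of these data known. The planned rRNA values could not be computed, as the rows used are mRNAs only.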

Additional observations from a re-analysis of the deposited data

How the results depend on the processing

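All 13 fold changes kept their sign in each of the 13 alternatives in which they were fitted (mt-Atp8 did not pass the filter at 1 FPKM). The number of mitochondrial mRNAs called higher was 7 with a pseudocount of 0.1, 6 with 1, 7 with the filter at 1 FPKM, 4 without a filter, 4 with median-of-ratios scaling and 8 by limma-voom on the recovered reads (6328 genes in all); none was lower. Leaving out 1 sample gave 0 to 12 (0 without WT replicate 2 or 3, 12 without KO replicate 1). Over all genes those fits called 3336 to 5861. With the replicate number as a block, 3 mitochondrial mRNAs were called, and 2, 2, 14, 5, 4 and 3 genes in the lists of mitochondrial DNA transcription, RNA handling, complexes I, III and IV and the ATP synthase. The labels share only a number: same-numbered deviations correlated at −0.24, 0.03 and −0.18. No sample correlated best with its own number, and the design gives no pairing. Without a filter the first list had 3 and complex III 5 higher. Leaving out 1 sample gave, in the same order of lists, between 1 and 6, 1 and 8, 9 and 31, 3 and 9, 3 and 11, and 2 and 9. The cause was not tested; these fits hold fewer samples. Low read numbers limit mt-Atp8, with 2 to 7 reads, and mt-Nd4l, with 34 to 76. The part of shared sequence in these numbers was not tested.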

Other observations

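A further group of annotated mitochondrial pseudogenes lies on chromosome 2. Gm13340, which shares 50-base windows with mt-Co1, was at 3.97, 5.52 and 9.20 FPKM in KO replicates 1, 2 and 3, against 3.55, 3.45 and 3.32 FPKM in WT replicates 1, 2 and 3. Gm13341, the diverged copy of mt-Co2, was at 2.14, 3.61 and 7.66 FPKM in KO samples, against 3.06, 2.80 and 2.88 FPKM in WT samples, and KO replicate 1 lay below all WT samples. Gm13339, which shares windows with mt-Nd2, was at 1.66, 1.63 and 2.33 FPKM in KO samples, against 0.874, 1.58 and 0.998 FPKM in WT samples. All of them were named after their values were seen. Gm11407 and Gm4076, on other chromosomes, which share 64 and 73 windows of 50 bases with mt-Nd5, were listed at 0 in all 6 samples.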
